A study of Mus musculus with 24 samples.

Results

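Metabotropic glutamate receptors were examined through 6 genes, Grm2, Grm3, Grm4, Grm5, Grm7 and Grm8, taken by gene symbol from the 24972 genes listed in each of 2 expression tables. The rule that took them used no measured value. Earlier results of these data were known when genes, lists and tests were chosen. The tables held RNA sequencing values from the medial prefrontal cortex (mPFC) of mouse offspring at P21, postnatal day 21, after maternal exposure to morphine (MO) or saline (SAL). All 6 genes passed the filter on low values in each sex and over both.

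The 24 libraries fell into 4 groups of 6, namely male MO, male SAL, female MO and female SAL. The offspring were wild-type B6D2F1/J mice, bred from C57BL/6J dams and DBA/2J sires. MO dams received subcutaneous morphine sulfate once a day from the week before mating until weaning, raised stepwise over the first days to 10 mg/kg, the dose given through gestation and lactation, and SAL dams received saline on the same schedule. The offspring themselves were not injected, so that their exposure came through the dam, and a group's libraries came from separate litters. Small litters were combined shortly after birth, so a litter here is a rearing litter and may hold pups of more than 1 dam. By the study's litter counts, with 1 pup per litter and sex, the SAL males and females came from the same litters and most MO libraries also had a littermate of the other sex in the set. Which libraries were littermates was not given in the sources used here, so the fits, permutations and correlations over both sexes treated the 24 libraries as independent and left this sharing out. Male and female libraries were normalized in separate tables, and levels were compared within a sex only.

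Metabotropic glutamate receptors are G protein-coupled receptors that sense synaptic glutamate and adjust excitability and transmitter release over a slower time course than glutamate-gated channels. Group I receptors, encoded here by Grm5, couple through Gq to phospholipase C and calcium release and lie mainly around the postsynaptic density. Group II receptors (Grm2 and Grm3) and group III receptors (Grm4, Grm7 and Grm8) couple through Gi/o, lower cyclic AMP and restrain transmitter release, and Grm3 is also expressed by astrocytes.

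The genes lie on 5 autosomes of GRCm38 (mm10), the build the reads were aligned to. Grm5 spans chr7:87584168-88134907 on the plus strand, and Grm7 spans chr6:110645581-111567230 on the plus strand. Grm2 (chr9:106643095-106656082), Grm3 (chr5:9485541-9725170), Grm4 (chr17:27422387-27521403) and Grm8 (chr6:27275119-28135178) are on the minus strand. Grm2 was the most compact and Grm7, at 921.6 kb, the longest. No 85-base stretch, the length of a read, of the annotated exons of Grm2, Grm3, Grm4, Grm5 or Grm7 occurred in another gene. In Grm8 12 of 10030 stretches (0.12%) did, and the microRNA gene Mir592 overlaps its exons on the same strand.

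Promoter windows from RefSeq (GRCm38.p6, 250 bases before to 50 bases after an annotated start) matched 4 of the 6 genes, Grm2, Grm3, Grm7 and Grm8. The windows of Grm2 and Grm7 are printed because these genes varied together across libraries, and that of Grm3 because it did not follow them. Capitals mark the GC box GGGCGG, searched on both strands. The windows are chr9:106656060-106656359 (minus strand) for Grm2, chr5:9725303-9725602 (minus strand) for Grm3 and chr6:110645262-110645561 (plus strand, the first of 2 annotated starts) for Grm7.
Grm2: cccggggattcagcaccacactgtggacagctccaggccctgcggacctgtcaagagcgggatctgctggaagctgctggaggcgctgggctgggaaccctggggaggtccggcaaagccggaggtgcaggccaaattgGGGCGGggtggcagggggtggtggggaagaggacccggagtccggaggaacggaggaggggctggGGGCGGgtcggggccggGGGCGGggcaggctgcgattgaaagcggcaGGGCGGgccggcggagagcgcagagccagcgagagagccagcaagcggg
Grm3: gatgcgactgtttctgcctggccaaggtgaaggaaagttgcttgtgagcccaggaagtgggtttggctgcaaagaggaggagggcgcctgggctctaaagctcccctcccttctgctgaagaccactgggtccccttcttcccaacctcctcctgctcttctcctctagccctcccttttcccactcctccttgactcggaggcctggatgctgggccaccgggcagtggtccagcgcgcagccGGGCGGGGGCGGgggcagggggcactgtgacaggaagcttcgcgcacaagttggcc
Grm7: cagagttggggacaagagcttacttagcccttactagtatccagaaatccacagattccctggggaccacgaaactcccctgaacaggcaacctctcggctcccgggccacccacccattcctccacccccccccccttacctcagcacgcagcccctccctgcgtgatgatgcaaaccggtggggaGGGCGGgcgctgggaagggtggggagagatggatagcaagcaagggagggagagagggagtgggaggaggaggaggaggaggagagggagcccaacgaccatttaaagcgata
The Grm2 window held 4 GC boxes and 22 CpG dinucleotides. The Grm3 window held 2 GC boxes and 11 CpG, and the Grm7 window 1 GC box and 10 CpG. Over 32851 RefSeq windows of the same length, 35.7% held at least 1 GC box, 10.7% held 3 or more, and the median was 7 CpG. These matches are descriptions of the sequence and were not tested against the expression values.

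Values are normalized counts as deposited, which summed to between 14728966 and 15966593 per library. These sums do not give the read depth, because the values had already been divided by normalization factors. The female MO library PFC1 stood apart. Over the 11783 genes averaging 50 or more in each table, its median Spearman correlation with the other female libraries was 0.964. Each of the other 11 was at 0.98955 or higher. PFC1 had the highest summed level among the 12 female libraries of the astrocyte, oligodendrocyte, oligodendrocyte precursor, microglia, endothelial, striatal and blood marker lists, and the lowest of the interneuron and cortical layer lists. Its summed pyramidal neuron markers were not low, at 92321 normalized counts. They were 72737 to 92535 in the other female MO libraries and 76327 to 90846 in female SAL libraries. Results that include it are therefore also given without it, except where stated. No marker gene was at 0 in every library, and pyramidal and cortical layer markers were present in all groups.

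Among the 6 genes, Grm5 and Grm3 had the highest median levels per kilobase of transcript and Grm4 the lowest. Divided by the length of the longest annotated transcript, the medians over the 12 male libraries were 448 normalized counts per kb for Grm5, 416 for Grm3, 220.0 for Grm7, 219.9 for Grm2, 155 for Grm8 and 73.8 for Grm4. In the 12 female libraries they were 415, 405, 207, 195, 150.2 and 72.9 in the same gene order. Grm5 and Grm3 overlapped, with Grm5 above Grm3 in 10 of 12 male and 8 of 12 female libraries, and so did Grm7 and Grm2, with Grm7 above Grm2 in 7 of 12 and 8 of 12. Grm3 exceeded Grm7 in all 24 libraries, and Grm8 exceeded Grm4 in 12 of 12 male and 11 of 12 female libraries, PFC1 being the exception.

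The order depended on the length used. With the union of annotated exons Grm3 stood above Grm5 in all 24 libraries and Grm2 above Grm7 in 11 of 12 male and 12 of 12 female libraries, while Grm8 lay close to Grm4, at medians of 60.4 and 56.9 normalized counts per kb in males. The Grm8 union is 9898 bases against 3856 bases for its longest transcript, and the transcripts in use in this tissue were not measured. By median, Grm5 and Grm3 were the upper pair and Grm7 and Grm2 the middle pair under both lengths, while the order within these pairs turned. Grm8 and Grm4 came last. With the union their ranges overlapped, and Grm8 exceeded Grm4 in only 7 of 12 male and 7 of 12 female libraries.

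**Figure D1:**
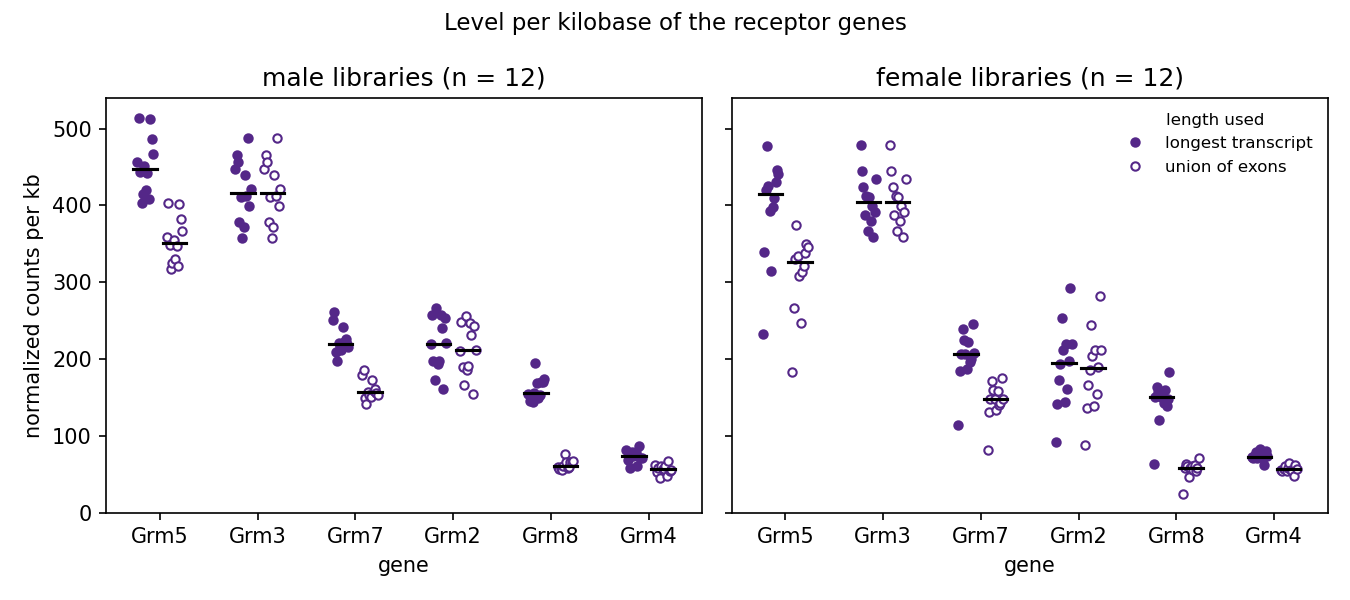
Normalized counts per kb of each receptor gene (vertical axis) in the 12 male and 12 female libraries, with the longest transcript (filled) or the union of exons (open) as the length and black lines at the medians. By median Grm5 and Grm3 sit highest and Grm4 lowest, close to Grm8 with the union. Grm8 drops most between the lengths, with male medians of 155 and 60.4.

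The question for each gene was whether maternal morphine was accompanied by another transcript level in the offspring. Grm5, the phospholipase C-coupled receptor of dendritic spines, had a lowest, median and highest value of 3246, 3602 and 4133 normalized counts in male MO libraries, against 3286, 3660 and 4121 in male SAL libraries. In females the values were 1876, 3270 and 3842 in MO libraries, against 2532, 3380 and 3590 in SAL libraries. The male groups covered almost the same range, and the female groups overlapped, with PFC1 below all other female libraries. The log2 fold change of Grm5 in MO over SAL was -0.03 ± 0.06 (SE) in males and -0.12 ± 0.14 in females, or 0.02 ± 0.09 in females without PFC1.

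Grm2, the group II autoreceptor of glutamatergic terminals, ranged widely within every group. Its lowest, median and highest values were 813, 981 and 1256 normalized counts in male MO libraries, against 759, 1085 and 1211 in male SAL libraries. Female MO libraries had 432, 860 and 1193, against 677, 983 and 1379 in female SAL libraries. MO and SAL overlapped in both sexes, and the coefficient of variation within groups was 16.7% to 31.8%, higher than for any other gene of the 6 in each group. For Grm2 the log2 fold change was -0.02 ± 0.12 in males, -0.25 ± 0.21 in females and -0.07 ± 0.17 in females without PFC1 (SE).

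Grm3, the group II receptor shared by neurons and astrocytes, was among the steadiest. It had a lowest, median and highest value of 1090, 1309 and 1419 normalized counts in male MO libraries, against 1134, 1270 and 1489 in male SAL libraries. In females it had 1120, 1275 and 1462 in MO libraries, against 1093, 1206 and 1323 in SAL libraries. The groups overlapped, and the highest female value was that of PFC1, in which Grm2, Grm5, Grm7 and Grm8 were at their lowest among females. In log2 terms MO over SAL was -0.01 ± 0.07 in males for Grm3 and 0.08 ± 0.07 in females, or 0.04 ± 0.06 without PFC1 (SE).

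Grm4, a group III receptor best known from cerebellar parallel fibers, was the least abundant. Values ran from 268 through a median of 343 to 374 normalized counts in male MO libraries, against 282, 336 and 401 in male SAL libraries. They ran from 326 through 338 to 362 in female MO libraries, against 283, 335 and 383 in female SAL libraries. The female MO libraries, PFC1 included, lay inside the female SAL range, and the male groups overlapped. The log2 fold change of Grm4 was -0.03 ± 0.09 in males and 0.01 ± 0.08 in females, with and without PFC1 (SE).

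Grm7, the group III receptor of the presynaptic active zone, had a lowest, median and highest value of 831, 916 and 1095 normalized counts in male MO libraries, against 888, 927 and 1014 in male SAL libraries. In females it had 481, 868 and 1005 in MO libraries, against 783, 858 and 1032 in SAL libraries. Male SAL libraries lay within the male MO range, and in females the medians were close while PFC1 lay far below. Grm7 had a log2 fold change of 0.02 ± 0.06 in males and -0.13 ± 0.14 in females, or 0.02 ± 0.08 without PFC1 (SE).

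Grm8, a further presynaptic group III receptor, had a lowest, median and highest value of 555, 584 and 751 normalized counts in male MO libraries, against 575, 653 and 669 in male SAL libraries. In females it had 245, 579 and 630.0 in MO libraries, against 533, 587 and 707 in SAL libraries. In all, 5 of the 6 male MO libraries lay below the male SAL mean of 633, and the remaining one, PFC19, was the highest of all male libraries. Between MO and SAL the log2 fold change of Grm8 was -0.07 ± 0.07 in males, -0.27 ± 0.19 in females and -0.06 ± 0.09 in females without PFC1 (SE). Leaving out PFC19 gave -0.13 in males with an unadjusted limma p of 0.0277 and a Benjamini-Hochberg adjusted p of 0.999, and the values without each male library in turn ran between -0.13 and -0.04.

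**Figure D2:**
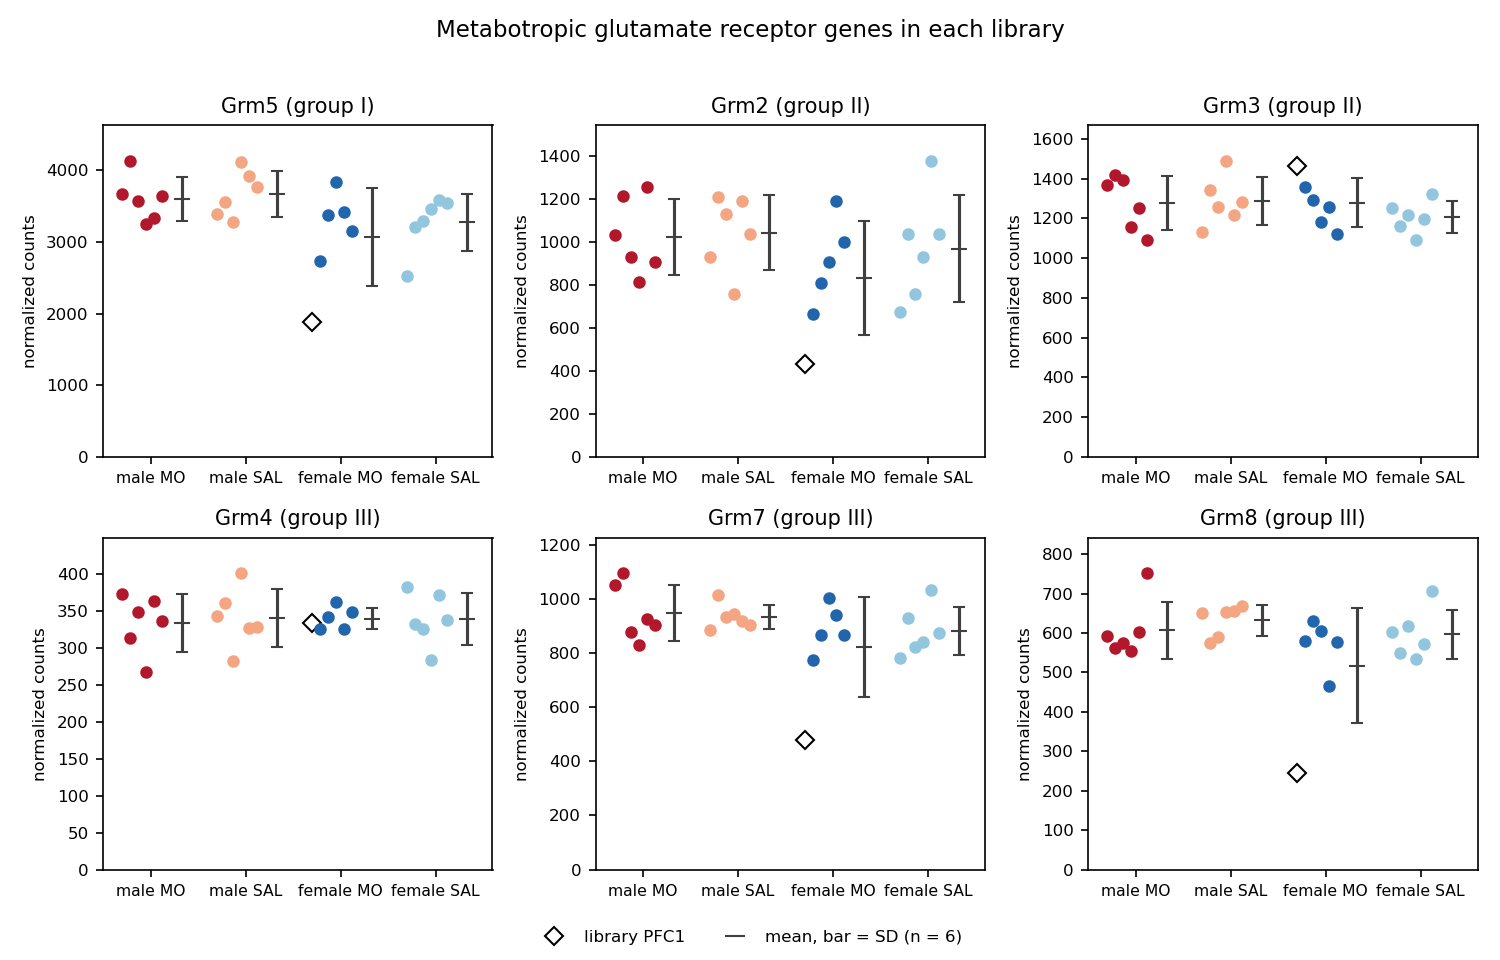
Normalized counts (vertical axes, from 0) of the 6 receptor genes in each library of male MO, male SAL, female MO and female SAL, with the mean and SD (n = 6) beside the points. MO and SAL overlap in every panel; the open diamond is PFC1, lowest of the female libraries for Grm5 (1876), Grm2 (432), Grm7 (481) and Grm8 (245) but not for Grm3 or Grm4.

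No receptor gene differed between MO and SAL beyond the spread between libraries. With limma and Benjamini-Hochberg adjustment over all genes, 0 of 6 passed an adjusted p of 0.05 in males (0% of 16662 genes did), in females (0% of 16717) or over both sexes (0% of 17303). At an unadjusted p under 0.05 the count was also 0 of 6 in each, where the share of all genes that passed was 2.85% for the male, 2.93% for the female and 4.72% for the pooled comparison. Without PFC1 the count stayed at 0 of 6, against 2.26% of genes in females and 3.49% over both sexes. The lowest adjusted p among the 6 was 0.847, for Grm8 over both sexes.

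Exact 2-sided permutation tests over libraries, which can go down to p = 0.00216 with 6 against 6, gave p between 0.403 (Grm8) and 0.903 (Grm3) in males. In females they gave p between 0.268 (Grm8) and 0.89 (Grm4), and without PFC1 between 0.535 (Grm8) and 0.881 (Grm5). Permuting within each sex over all 24 libraries gave p between 0.143 for Grm8 and 0.875 for Grm4. Within a sex the p-values rest on the spread between animals of separate rearing litters, and those over both sexes leave out that littermates share a litter.

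The intervals show how large a difference could have gone unseen. In males the 95% intervals of the log2 fold change were tightest for Grm5 (-0.16 to 0.10) and widest for Grm2 (-0.27 to 0.22). In females Grm2 ran from -0.70 to 0.21 and Grm8 from -0.66 to 0.13, and without PFC1 Grm2 ran from -0.42 to 0.28 and Grm8 from -0.25 to 0.12. Grm3 and Grm4 in females had intervals of -0.07 to 0.23 and -0.15 to 0.17. A smaller change than these bounds cannot be told from none with these libraries.

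Over both sexes the log2 fold changes were -0.07 for Grm5, -0.14 for Grm2, 0.03 for Grm3, -0.01 for Grm4, -0.06 for Grm7 and -0.17 for Grm8. Without PFC1 they were -0.01, -0.05, 0.01, -0.01, 0.02 and -0.06 in the same gene order. The median over all genes was 0.00 in both fits. The MO effect in males minus that in females was tested as an interaction in limma, and 0 of 6 genes passed an adjusted or an unadjusted p of 0.05 (0% and 2.1% of all genes). That difference was largest for Grm2, at 0.22 ± 0.26, and for Grm8, at 0.20 ± 0.21 (SE). Without PFC1 the same differences were 0.05 for Grm2 and -0.0037 for Grm8.

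**Figure D3:**
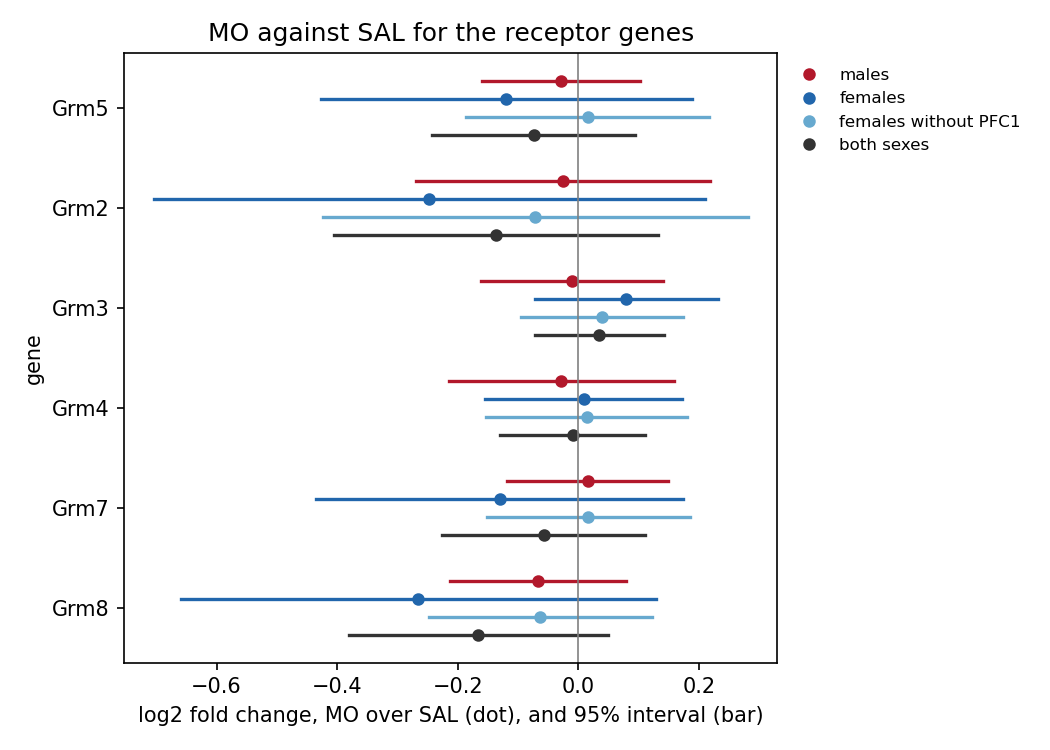
Log2 fold change of MO over SAL (horizontal axis; dots, with 95% intervals as bars) for each receptor gene in males, in females, in females without PFC1 and over both sexes. Every interval includes 0; leaving out PFC1 moves the female values toward 0 for Grm2 (-0.07 without it, -0.25 with it) and Grm8 (-0.06 without it, -0.27 with it) and narrows their intervals.

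The female differences in Grm2, Grm5, Grm7 and Grm8 depended on PFC1. Against the mean of the other 5 female MO libraries its level was 0.47 times for Grm2, 0.57 times for Grm5, 0.54 times for Grm7 and 0.43 times for Grm8, each the lowest of the 12 female libraries. Grm3 was at 1.18 times and Grm4 at 0.98 times that mean. The receptors were thus not shifted by a common factor in this library, and the ratio of Grm3 to Grm2 per kb of longest transcript was 5.23 in PFC1, against a range of 1.34 to 2.86 in the female SAL libraries. The summed oligodendrocyte markers (6 of 6 detected) reached 295945 normalized counts in PFC1, against 44797 to 167984 in the other female MO libraries and 30153 to 133188 in female SAL libraries. The summed astrocyte markers (7 of 7 detected) were 111371 in PFC1, against 57267 to 95827 in the other female MO libraries and 57384 to 72437 in female SAL libraries. The part of these cell types in the receptor levels was not tested, and in bulk tissue fewer cells of a type and less RNA per cell cannot be told apart.

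Across libraries some receptors varied together after the mean of each group was removed. Grm5 and Grm7 had a Pearson r of 0.87 over 24 libraries (permutation p = 6e-05, adjusted over 15 pairs 0.0006) and a Spearman rho of 0.71 (adjusted p = 0.0039). Grm2 and Grm7 had r = 0.82 (permutation p = 8e-05, adjusted 0.0006) and rho = 0.79 (adjusted p = 0.00105). Grm2 and Grm5 had r = 0.67 (permutation p = 0.00668, adjusted 0.0334) but rho = 0.53 (adjusted p = 0.0775). These 3 of 15 pairs join members of all 3 receptor groups and passed the Pearson test. The share of other gene pairs that would pass was not computed, so the count cannot be read as particular to these receptors. Among 11783 genes, the nearest to Grm2, Grm5 and Grm7 had r of 0.93 to 0.94.

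Without the 2 libraries farthest from the median of the first gene, r was 0.70 for Grm5 and Grm7, 0.69 for Grm2 and Grm7, and 0.44 for Grm2 and Grm5. With only PFC1 left out, Grm2 and Grm7 (r = 0.71, adjusted permutation p = 0.0103) and Grm5 and Grm7 (r = 0.68, adjusted 0.0117) still passed, and Grm2 and Grm5 did not (r = 0.43, adjusted 0.372). Within the 12 male libraries none of the 15 pairs passed, with r = 0.54 for Grm5 and Grm7 and r = 0.52 for Grm2 and Grm7 (adjusted permutation p = 0.354 each), and r = -0.01 for Grm2 and Grm5. Within the 12 female libraries the same 3 pairs passed, at r = 0.92, 0.89 and 0.84, and without PFC1 0 of 15 did, with r = 0.77 for Grm5 and Grm7 and r = 0.84 for Grm2 and Grm7 (adjusted permutation p = 0.093 and 0.0503). The 2 leading relations thus had the same sign in each sex but did not pass within males.

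The correlations of Grm8 rested on PFC1. Its r was 0.67 with Grm5 and 0.65 with Grm7 over 24 libraries (adjusted permutation p = 0.214 and 0.265), and 0.10 and -0.23 without PFC1. Grm3 with Grm2 had r = -0.30, or -0.11 without PFC1, and Grm4 stayed between 0.02 and 0.34 with every other gene over 24 libraries. None of these pairs passed.

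**Figure D4:**
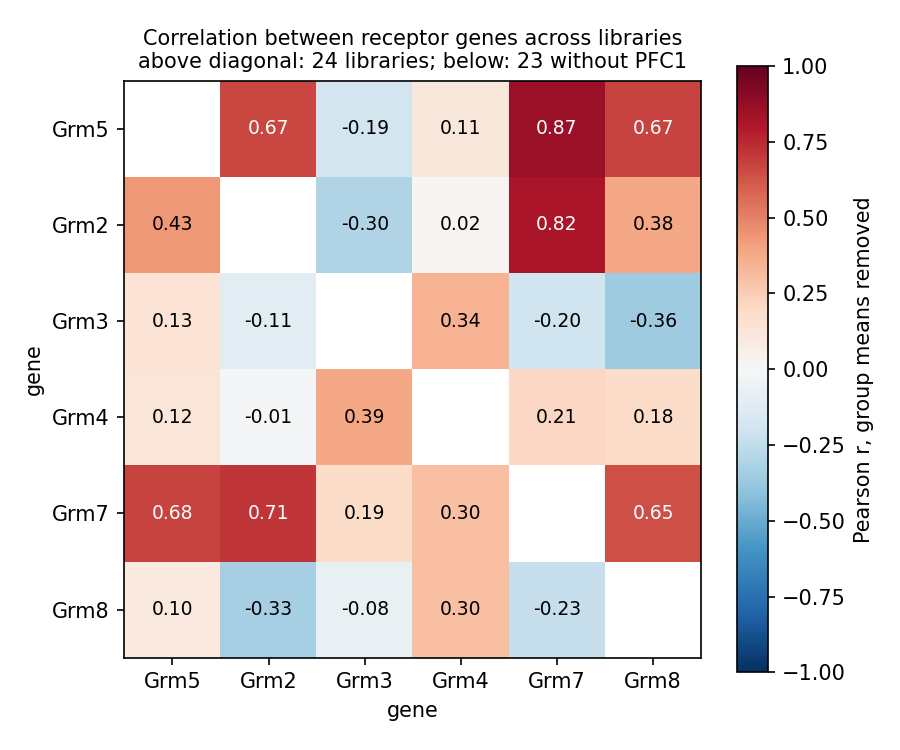
Pearson r between receptor genes across libraries after removal of group means, with all 24 libraries above the diagonal and 23 libraries without PFC1 below it; color gives r. Grm7 with Grm5 (0.87 and 0.68) and with Grm2 (0.82 and 0.71) stay high, and the values of Grm8 do not.

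The same 3 genes ran opposite to markers of oligodendrocytes and, over 24 libraries, of several other cell types. Over 24 libraries, with group means removed, the mean log2 level of 6 oligodendrocyte markers had r = -0.82 with Grm2, -0.80 with Grm5 and -0.76 with Grm7, given as a description of libraries that share their normalization. Without PFC1 the values were -0.74, -0.70 and -0.66. Within males they were -0.62, -0.59 and -0.55, and in females without PFC1 -0.81, -0.75 and -0.73. Grm3 (r = 0.22) and Grm4 (r = -0.22) showed little such relation.

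Over 24 libraries the relation was not particular to oligodendrocytes. With microglia markers r was -0.81 for Grm2, -0.69 for Grm5 and -0.71 for Grm7 over 24 libraries, and -0.73, -0.50 and -0.54 without PFC1. With oligodendrocyte precursor markers r was -0.71, -0.75 and -0.71 in the same gene order, and -0.54, -0.55 and -0.44 without PFC1. Within males r was weaker, at -0.53, -0.15 and -0.23 with microglia markers and -0.14, -0.32 and 0.0018 with precursor markers. Grm2 thus ran against each of these glial lists over 24 libraries, but hardly against precursor markers within males. In females without PFC1 Grm2 had r = -0.84 with microglia markers, close to its -0.81 with oligodendrocyte markers. Grm2 also had r = -0.73 with striatal neuron markers, or -0.56 without PFC1 and -0.67 within males. With interneuron markers Grm2 had r = 0.68, or 0.54 without PFC1 and 0.10 within males. With cortical layer markers it had r = 0.35, but -0.43 without PFC1 and -0.72 within males.

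Single libraries show how far Grm2 and oligodendrocyte markers went together. In male MO, PFC15 had the most oligodendrocyte signal (134475 summed normalized counts) and the least Grm2 (813), and PFC11 the least signal (37988) with 1213 for Grm2. In female SAL, PFC22 had the least oligodendrocyte signal (30153) and the most Grm2 (1379), and PFC2 the most (133188) and the least Grm2 (677). In female MO, PFC1 had the most signal (295945) and the least Grm2 (432), and PFC21 the least signal (44797) and the most Grm2 (1193). The male SAL libraries did not follow this order: PFC14 had the most signal (77159) with 1131 for Grm2, above the median of its group, and the least Grm2 (759) was in PFC16, at a signal of 70182. Among females, the deposited columns of PFC1 to PFC8 carry the word combined and those of PFC21 to PFC24 do not. Oligodendrocyte sums were 30153 to 46888 in PFC21 to PFC24, below all of PFC1 to PFC8 (55899 to 295945). Grm2 ran from 999 to 1379 in PFC21 to PFC24 and from 432 to 1037 in PFC1 to PFC8. The female relation thus ran along this label, whose part was not tested. The oligodendrocyte sums overlapped between MO and SAL in each sex, at 37988 to 134475 in male MO against 44660 to 77159 in male SAL libraries. All 6 of these markers had a log2 fold change above 0 in both sexes, as did 49.85% of all genes in males and 50.5% in females. Without PFC1, 3 of 6 were above 0 in females. The marker medians were 0.24 in males and 0.33 in females (0.00 in females without PFC1), and none of the 6 passed an unadjusted p of 0.05. How far the cell makeup of a sample accounts for its Grm2, Grm5 or Grm7 level was not tested.

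**Figure D5:**
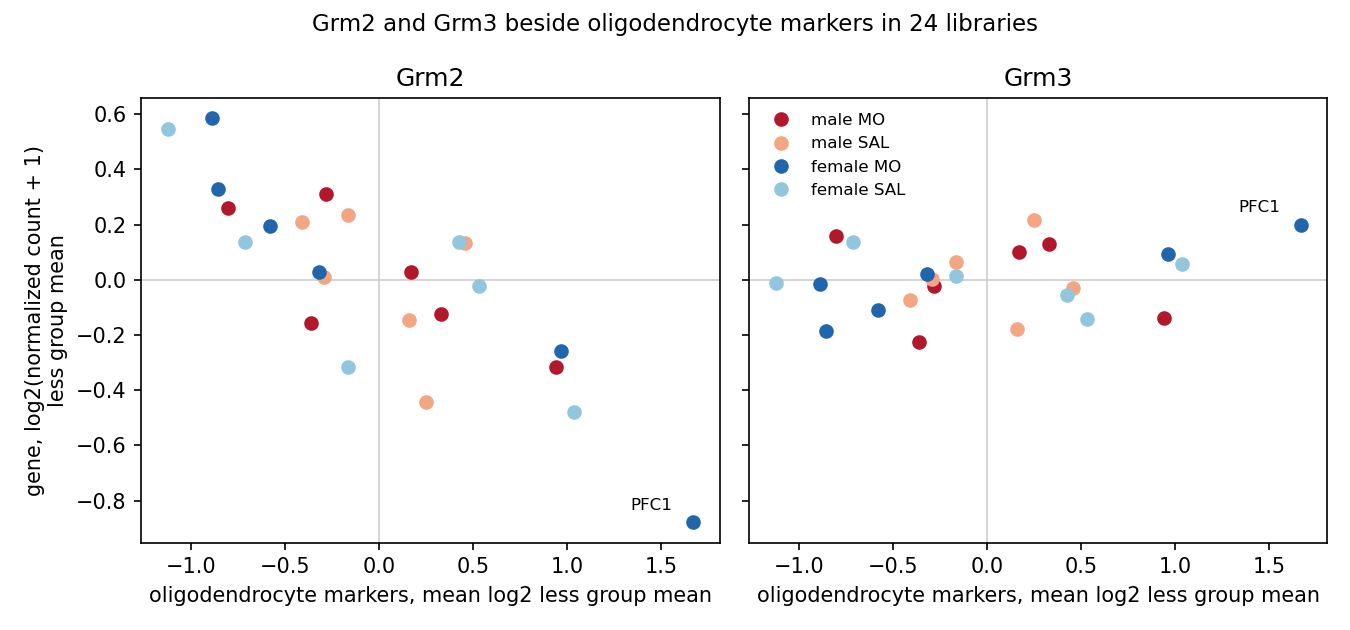
Grm2 (left) and Grm3 (right), as log2(normalized count + 1) less the group mean, against the mean log2 level of 6 oligodendrocyte markers less the group mean; each point is 1 of 24 libraries, colored by group. Grm2 runs downward over the libraries (r = -0.82, or -0.74 without PFC1), and Grm3 does not (r = 0.22).

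Grm8 had its highest correlations with pyramidal, cortical layer and astrocyte markers, and PFC1 weighed on each; differences between the sexes were not tested. Over 24 libraries r was 0.88 with pyramidal neuron markers and 0.87 with cortical layer markers, and 0.38 and 0.47 without PFC1. With the mean log2 level of 7 astrocyte markers r was -0.82 over 24 libraries, -0.58 without PFC1, -0.91 within males and -0.29 in females without PFC1. Once PFC1 was left out, the astrocyte relation thus lay mainly in the male libraries, where it was not particular to astrocytes. Within males Grm8 also had r = -0.77 with endothelial, -0.68 with oligodendrocyte precursor and -0.56 with microglia markers. In females without PFC1 these were 0.13, -0.07 and 0.01. There r was 0.73 with pyramidal and -0.76 with interneuron markers, against 0.08 and -0.32 in males. Grm5 (-0.64), Grm7 (-0.55) and Grm2 (-0.52) also ran opposite to astrocyte markers over 24 libraries, and were at -0.26, 0.07 and -0.18 without PFC1. The summed astrocyte markers ranged from 56218 to 79218 normalized counts in male MO libraries, against 63582 to 80284 in male SAL libraries, and the part of any cell type in the Grm8 level was not tested.

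For each receptor the genes most alike across 24 libraries were sought over 11783 genes averaging 50 or more in each table, again with group means removed. Nearest to Grm5 were Acvr2a (an activin receptor, r = 0.94), Tmx4 (0.93) and Astn1 (astrotactin, a neuronal adhesion protein, 0.93), and all 3 were again the nearest without PFC1. Nearest to Grm2 were Crhr1 (a corticotropin-releasing hormone receptor, r = 0.94), Cacng3 (an AMPA receptor auxiliary subunit, 0.94) and Sertm1 (0.93). None of these was among the nearest 3 without PFC1, when Dact2, Ntm and Slc30a3 (the vesicular zinc transporter) led at r = 0.94, 0.93 and 0.92.

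Nearest to Grm7 were Dpp6 (an auxiliary subunit of A-type potassium channels, r = 0.94), Ywhaz (a 14-3-3 protein, 0.94) and Herc3 (0.94), none of which stayed among the nearest 3 without PFC1. Nearest to Grm8 were Slc35f1 (r = 0.95), Dkk3 (0.94) and Ldb2 (0.94), of which Slc35f1 stayed at 0.77. Grm3 had 2610507B11Rik (r = 0.90), Sv2c (a synaptic vesicle protein, 0.88) and 2610005L07Rik (0.84), and Grm4 had Zfyve28 (0.83), Sox5 (a transcription factor, 0.70) and Tldc1 (0.69), each keeping 2 of 3 without PFC1. These are likenesses across libraries that share cell makeup and normalization.

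Genes around group I receptors were described by a list of 18 postsynaptic partners, all tested. None passed an adjusted p in males, in females or over both sexes, and the median log2 fold change was -0.01 in males and -0.03 in females (0.03 without PFC1), against 0.00 over all genes in each. Homer1, the scaffold that ties Grm5 to internal calcium stores, had -0.04 ± 0.10 in males and -0.12 ± 0.13 in females (-0.02 ± 0.11 without PFC1; SE). Ncdn, neurochondrin, which binds Grm5, had -0.01 ± 0.05 in males and -0.18 ± 0.11 in females (-0.09 ± 0.07 without PFC1). Gnaq, the Gq alpha subunit, had 0.01 ± 0.04 in males and -0.04 ± 0.12 in females (0.05 ± 0.09 without PFC1). Plcb1, the phospholipase C that Gq activates, had -0.05 ± 0.05 in males and -0.17 ± 0.10 in females (-0.08 ± 0.06 without PFC1).

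Homer2, a further Homer scaffold, was the 1 gene of the 18 with an unadjusted p under 0.05, in females alone (1 of 18, where 2.93% of all genes passed). It averaged 1706 ± 160.1 normalized counts in female MO and 1518 ± 83.0 in female SAL libraries (SD, n = 6 each), and the groups overlapped. With limma its log2 fold change was 0.16 ± 0.07 (unadjusted p = 0.0326, Benjamini-Hochberg adjusted p = 0.918), and 0.16 without PFC1 (unadjusted p = 0.0383). In males it was 0.01 ± 0.06, and the difference between the sexes did not pass (limma interaction, unadjusted p = 0.0985). That difference was not examined without PFC1.

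Among 17 genes of Gi/o signaling and partners of group II and III receptors, 0 passed an adjusted or an unadjusted p of 0.05 in males, in females or over both sexes. Of all genes, 2.85%, 2.93% and 4.72% passed the unadjusted threshold in these comparisons. The list medians were -0.02 in males and -0.03 in females (0.01 without PFC1). Gnao1, the abundant Go alpha subunit, had -0.03 ± 0.04 in males and -0.07 ± 0.07 in females (-0.04 ± 0.05 without PFC1; SE). Adcy1, a neuronal adenylyl cyclase, had -0.01 ± 0.05 in males and 0.07 ± 0.10 in females (0.10 ± 0.10 without PFC1). Pick1, a scaffold that binds Grm7, had 0.05 ± 0.07 in males and -0.15 ± 0.07 in females (-0.12 ± 0.07 without PFC1), and did not pass. Elfn1 and Elfn2, postsynaptic proteins that recruit group III receptors across the synapse, had 0.11 ± 0.07 and -0.02 ± 0.05 in males, and 0.07 ± 0.11 and 0.02 ± 0.09 in females (0.09 ± 0.11 and 0.08 ± 0.08 without PFC1).

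Among 10 genes of glutamate release, uptake and turnover, 0 passed an adjusted p, with medians of -0.02 in males and 0.10 in females (0.06 without PFC1). Slc7a11 is the cystine-glutamate exchanger that supplies extracellular glutamate to group II receptors. It was the 1 gene of the 10 with an unadjusted p under 0.05, in females alone (1 of 10, where 2.93% of all genes passed). It averaged 645 ± 70.9 normalized counts in female MO and 543 ± 62.3 in female SAL libraries (SD, n = 6 each), with overlapping ranges. With limma its log2 fold change was 0.25 ± 0.09 (unadjusted p = 0.0146, Benjamini-Hochberg adjusted p = 0.918) and 0.20 without PFC1 (unadjusted p = 0.0289). In males it was -0.13 ± 0.13. The MO effect in males minus that in females was -0.38 (limma interaction, unadjusted p = 0.0385, adjusted 0.9997). This interaction was not examined without PFC1, so its dependence on that library was not tested. At an unadjusted p under 0.05, 2.1% of all genes passed that interaction.

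The vesicular glutamate transporter Slc17a7 had a log2 fold change of -0.02 ± 0.05 in males and -0.12 ± 0.09 in females (-0.06 ± 0.06 without PFC1; SE). The astrocyte glutamate transporters Slc1a2 and Slc1a3 had -0.02 ± 0.09 and 0.01 ± 0.07 in males, and 0.22 ± 0.15 and 0.21 ± 0.14 in females. Without PFC1 the female values of Slc1a2 and Slc1a3 were 0.13 ± 0.12 and 0.08 ± 0.09. Neither passed, and both also belong to the astrocyte marker list.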

How the data were processed

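Per the labels and the study's methods, polyA-selected, strand-preserving libraries were sequenced as single 85-base reads, mapped to mm10 (STAR), with transcript abundance from Salmon. The authors deposited a table of DESeq2-normalized counts for each sex, a signal on a linear scale whose values are not whole reads, so read depth and counting error per value are unknown. Of the 24 deposited columns 11 carry the word combined, whose meaning was not given in the sources used here, and no column was left unmapped.

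Because the values are not counts, log2(value + 1) was tested with limma 3.58.1 in R 4.3.3 (empirical Bayes with a trend, genes summing to at least 10, Benjamini-Hochberg adjustment over all genes), in males, in females, over both sexes with sex as a term, and as an interaction. Single genes were also tested by exact permutation over libraries. Correlations used 100000 permutations within groups and adjustment over 15 pairs. The limma step was tested on simulated data with independent noise for each gene. That setting held no outlying library and no shift shared between genes, so it cannot show how the fits behave under either. Gene models came from GENCODE vM21. Python 3.11.15 and SciPy 1.17.1 were used. The 6 receptor genes, 13 genes of the 3 pathway lists with any list gene at an unadjusted p under 0.05, and the 3 genes most like each receptor were named by rule. Genes, lists and tests were chosen with earlier results of these data known.

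Alternatives were pseudocounts of 0.5 and 5, no filter, a mean of at least 10, sample weights, a term for the combined columns, scaling to Gapdh and Ppia or to the median ratio, the union of exons as length, and leaving out each library. Correlations and nearest genes without PFC1 were added after seeing the data.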

Additional observations from a re-analysis of the deposited data

Results flagged for a closer look

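Grm8 in male MO library PFC19 was 751 normalized counts, far above the other 5 male MO libraries, with a gap to the nearest of 0.756 of the group's range. Grm5 in female SAL library PFC2 was 2532 normalized counts, below the other 5 female SAL libraries by 0.637 of the range. These were 2 of 24 groups of 6 examined by Dixon's criterion, which flags about 1 in 20 groups by chance (1.2 of 24). PFC2 also had the highest oligodendrocyte marker sum of the female SAL libraries (133188 normalized counts), whose part in its Grm5 level was not tested.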

How the results depend on the processing

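No receptor gene passed an adjusted limma p of 0.05 in males, in females, over both sexes or between the sexes under any alternative run. Outside leaving out libraries, 137 of 144 log2 fold changes kept their sign. The 7 that did not were small: with sample weights Grm3 (0.038) and Grm4 (0.0092) in males and Grm4 (0.022) and Grm7 (0.012) over both sexes, with Gapdh and Ppia scaling Grm7 in males (-0.011) and Grm4 over both sexes (0.023), and with a term for combined columns Grm7 in males (-0.0075). Leaving out 1 library kept the sign in 261 of 288, with a lowest adjusted p of 0.643. It gave ranges in males of -0.11 to 0.039 for Grm2, -0.046 to 0.034 for Grm3, -0.081 to 0.034 for Grm4, -0.069 to 0.0056 for Grm5 and -0.027 to 0.052 for Grm7, in females of -0.041 to 0.045 for Grm4, -0.19 to 0.015 for Grm5 and -0.20 to 0.017 for Grm7, and over both sexes of -0.034 to 0.021 for Grm4 and -0.085 to 0.016 for Grm7. The positive ends for Grm5 and Grm7 in females, and for Grm7 over both sexes, came without PFC1. In males the count at an unadjusted p under 0.05 was 0 to 1, the 1 being Grm8 without PFC19. The 3 of 15 correlated pairs became 0 within males and 0 in females without PFC1, sets of 12 and 11 libraries, and stayed 3 in females and with median-ratio scaling. Ranking by the union of exons left 2 of 6 genes at the same rank in each table. The cause of these changes was not tested. No paired analysis was possible because the sources used here do not say which libraries were littermates.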
